A study of Mus musculus with 24 samples.

Results

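The genes described here are 10 adhesion molecules of the endothelial surface, namely Icam1, Vcam1, Sele, Selp, Icam2, Pecam1, Cdh5, Mcam, Esam and Cldn5. They were taken by symbol from the 25361 genes of an RNA sequencing table of mouse liver at embryonic day (E) 12.5, and all 10 symbols were found there once. The table holds 24 libraries in 8 groups of 3. LSECs (liver sinusoidal endothelial cells) were pulled from each liver with beads against CD146, and the cells that were left are called non-EC cells. Control embryos were Cre-negative. Chd4-ECKO embryos were Chd4fl/fl and Brg1fl/+, Brg1-ECKO embryos were Chd4fl/+ and Brg1fl/fl, and Chd4/Brg1-ECDKO embryos were fl/fl for both genes, and all 3 mutant groups carried VE-cadherin-Cre. Chd4 and Brg1 (gene symbol Smarca4) are the ATPases of the chromatin remodeling complexes NuRD and SWI/SNF. The Cre is driven by the promoter of VE-cadherin, which is encoded by the member Cdh5, so deletion is directed to endothelial cells and reaches the blood cells that descend from hemogenic endothelium. Each single mutant also carries a floxed allele of the other gene, and no group had Cre without homozygous deletion, so that an effect of Cre cannot be told apart from an effect of the deletion. The study states 3 embryos per genotype, on a mixed background with both sexes pooled, and the labels do not say which LSEC and non-EC libraries share an embryo, so that p-values measure the spread between these libraries. The comparisons ask whether loss of either remodeler changes the molecules with which the liver endothelium holds leukocytes and its own junctions, and whether loss of both does the same.

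Leukocytes leave the blood in steps. The selectins, E-selectin (Sele) and P-selectin (Selp), slow a rolling cell by binding its sugar ligands, and the immunoglobulin-type receptors ICAM1 and VCAM1 then hold it by binding the integrins LFA-1, Mac-1 and VLA-4. Sele, Vcam1 and Icam1 are the classic genes that inflamed endothelium turns on through NF-kappaB. ICAM2 binds LFA-1 but is made constitutively by resting endothelium. PECAM1, VE-cadherin (Cdh5), MCAM (CD146), ESAM and claudin-5 (Cldn5) sit at the contacts between endothelial cells, where VE-cadherin forms the adherens junction and claudin-5 a tight junction. In the adult liver the sinusoidal endothelium is unusually open and is poor in selectins.

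All positions are from the GENCODE M39 annotation of GRCm39. Icam1 (ENSMUSG00000037405) lies at chr9:20926672-20940113 on the plus strand with 7 exons, and Icam4 follows it after 555 bases. Vcam1 (ENSMUSG00000027962) lies at chr3:115903598-115923355 on the minus strand with 9 exons. Cldn5 (ENSMUSG00000041378) has a single exon at chr16:18595597-18597012 on the plus strand, and Cdh5 (ENSMUSG00000031871) has 12 exons at chr8:104828231-104871143. The selectin genes are near each other, with Sele at chr1:163867401-163886055 and Selp at chr1:163942833-163977595. Esam is at chr9:37439344-37449615 and Mcam at chr9:44045504-44054025. Icam2 at chr11:106263312-106278943 and Pecam1 at chr11:106543689-106641454 are both on the minus strand. Icam2 shares 6079 bases with Prr29 on the other strand, Icam1 shares 511 bases with the noncoding gene Gm47079, and Vcam1 shares 1256 bases with Gm43109. Whether the counting used strand is not given in the sources used here, and without strand the reads of such overlapping pairs could not be told apart.

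RefSeq promoter windows, of 250 bases before the start site, were at hand for 5 of the 10 members (Icam1, Sele, Selp, Mcam and Cldn5), and were placed on GRCm39 by an exact match. Vcam1, Icam2, Pecam1, Cdh5 and Esam had no entry. The windows of Icam1 and Cldn5 are shown because these are the members with differences between genotypes that passed the test. For Icam1 the 30 bases around the match to GGAANTTCC, a letter pattern of NF-kappaB sites that reads the same on both strands, are printed with the match in capitals, from chr9:20927073-20927102 on the plus strand. For Cldn5 the window is chr16:18595347-18595596 on the plus strand, and the capitals mark a match to the GC box GGGCGG on the minus strand.
Icam1: acttcagtttGGAAATTCCtagatcgcagg
Cldn5: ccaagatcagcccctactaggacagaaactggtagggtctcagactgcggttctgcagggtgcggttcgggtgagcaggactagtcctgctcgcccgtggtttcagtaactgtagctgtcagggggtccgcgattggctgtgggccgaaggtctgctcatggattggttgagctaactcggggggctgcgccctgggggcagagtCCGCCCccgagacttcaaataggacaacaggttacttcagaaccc
The Icam1 match ends 145 bases before the RefSeq start, and the longer Icam1 transcripts of GENCODE M39 start upstream of it. Both strands of the 5 windows were searched for 5 motifs, and matches of different motifs did not overlap in the sequences shown. GGAANTTCC was present in Icam1 alone, while 0.813% of the 32851 RefSeq windows of this length hold it. The 10-letter NF-kappaB consensus was in none of the 5 (7.25% of all windows). The ETS core AGGAAG was in Sele and Selp (29.5% of all), TATAAA in Sele (12.4%) and GGGCGG in Icam1, Mcam and Cldn5 (32.7%). A match is a run of letters and no test of binding.

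Values are TPM (transcripts scaled to a fixed total), in which reads are divided by gene length and scaled to the same total in each library, so levels can be compared between genes but the depth behind a value is unknown. Between 12746 and 13219 genes reached 1 TPM in LSEC libraries and between 11450 and 11973 in non-EC libraries. The mitochondrial share of TPM was 13.9% to 31.5% in LSECs and 2.33% to 7.69% in the other fraction. All 12 endothelial reference genes (among them Kdr, Tek and Erg) were at 1 TPM or more in every LSEC library. The LSEC libraries also held RNA of other cells. The summed TPM of 16 mesenchymal and mesothelial markers was 1311 to 2267 in LSECs against 59.2 to 218 in non-EC cells, and that of 18 macrophage markers was 782 to 1898 against 310 to 769. LSEC Brg1-ECKO replicate 1 stood apart, with 30504 TPM of 12 hepatoblast markers against 3683 to 8864 in the other 11 LSEC libraries, and a geometric mean of 38.5 TPM of the 12 endothelial reference genes against 56.2 to 76.7. Differences from control in Brg1-ECKO LSECs are therefore given with and without it where the junction genes are described. The targeted genes overlapped the control in their own mutants. Chd4 was at 246 to 285 TPM in control LSECs, 168 to 252 in Chd4-ECKO and 242 to 256 in Chd4/Brg1-ECDKO, and Smarca4 at 134 to 161 TPM in control, 111 to 157 in Brg1-ECKO and 117 to 151 in Chd4/Brg1-ECDKO. A whole-gene value still counts transcripts that lack the floxed exons, so these values do not check the genotype. In such bulk samples, fewer cells of a type and less RNA per cell cannot be told apart.

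The level of each gene in each library is drawn in the plot of all members. In LSECs the order of the medians over 12 libraries was Cdh5 at 303 TPM, Icam2 at 155, Cldn5 at 122, Pecam1 at 116, Vcam1 at 66.7, Esam at 57.2, Mcam at 54.4, Icam1 at 38.1, Sele at 0.604 and Selp at 0.152. The ranges of Icam2 (85.8 to 215 TPM), Cldn5 (46.8 to 175) and Pecam1 (73.1 to 135) overlapped, as did those of Vcam1 (43.7 to 79.2), Esam (33.2 to 73.5) and Mcam (34.8 to 64.8), so their order within these groups is within the spread of the libraries. The selectins were near or below 1 TPM. The medians pool the genotypes, and the order is not the same in each, since in Brg1-ECKO LSECs the mean of Vcam1 (75.1 TPM) was above that of Cldn5 (70.1). In non-EC cells the order differed. Vcam1 came first with a median of 45.1 TPM, followed by Icam1 at 20.4 and Icam2 at 12.5, and Mcam, Cldn5 and Sele were under 1 TPM in every library.

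**Figure D1:**
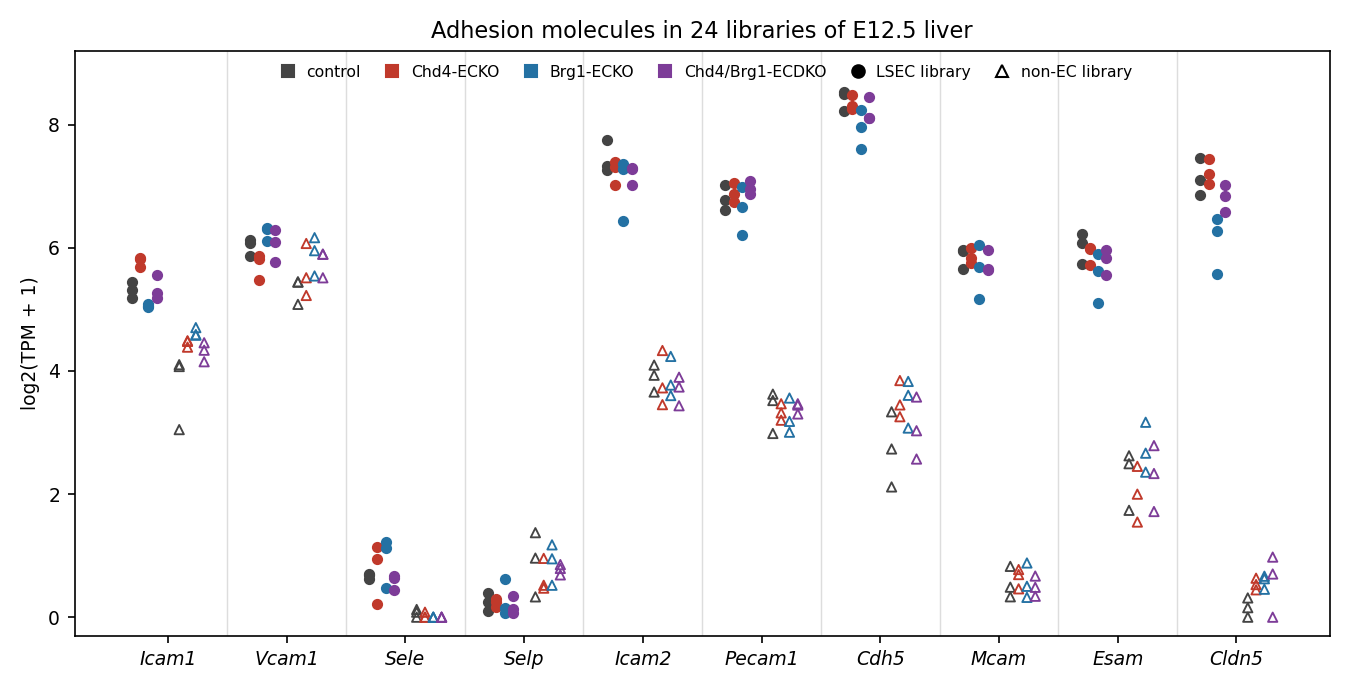
Level of each member as log2(TPM + 1) in the 12 LSEC libraries (filled circles) and 12 non-EC libraries (open triangles), colored by genotype. Cdh5 is the highest member in LSECs and Vcam1 in non-EC cells, while Sele reaches at most 1.32 TPM and Selp at most 1.59 TPM.

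Control LSECs had more RNA of most members than control non-EC cells. The test was limma's, run on log2(TPM + 1), and differentially expressed genes (DEGs) are those that moved by more than 1 log2 unit either way at adjusted p values below 0.05. Of the 9 members tested, 7 were DEGs, all higher in LSECs, while 32.7% of all 13775 genes tested were DEGs and 19.4% were higher DEGs. All 9 passed the adjusted p alone, as did 67.1% of all genes. Mcam, Cldn5 and Sele entered the test only through LSEC libraries, so their direction was fixed by the filter, and of the other 6 members 5 were DEGs. Cldn5 was at 142 ± 30.7 TPM (SD, n = 3) in control LSECs against 0.118 ± 0.121 in control non-EC cells, a log2 fold change of 6.98 ± 0.23 (SE; limma adjusted p = 1.40e-15) whose size is set by the pseudocount, since it was 9.49 with 0.1 TPM. Cdh5 was at 342 ± 39 TPM against 6.03 ± 2.90, a log2 fold change of 5.69 ± 0.27 (limma adjusted p = 2.49e-13). Both genes are used as marks of endothelium, and both were low but, for Cdh5, not absent outside it. Pecam1, Icam2 and Esam followed with log2 fold changes of 3.43, 3.56 and 3.73 (limma adjusted p of 1.77e-12, 4.98e-11 and 4.42e-10). Pecam1 kept 6.91 to 11.3 TPM in the 12 non-EC libraries and Icam2 9.81 to 19.1 TPM. Mcam encodes the protein that the beads bind, so its log2 fold change of 5.31 is part of the separation and not a finding. Icam1 was less restricted, with a log2 fold change of 1.58 ± 0.19 (limma adjusted p = 2.56e-07). Vcam1, at 0.70 ± 0.20, passed the adjusted p (limma adjusted p = 0.00374) but not the fold threshold.

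Icam1, the receptor for LFA-1, passed the adjusted p between the single mutants in LSECs. It was at 38.9, 42.5 and 35.4 TPM in the 3 control LSEC libraries. It was at 50.8, 55.6 and 56.0 TPM in Chd4-ECKO LSECs, each above every control library. In Brg1-ECKO LSECs it was at 33.0, 32.0 and 32.3 TPM, each below every control library. In Chd4/Brg1-ECDKO LSECs it was at 35.5, 37.3 and 46.2 TPM, a range that overlaps the control. The control mean was thus 38.9 ± 3.56 TPM (SD, n = 3). The mean of Chd4-ECKO was 54.1 ± 2.89, that of Brg1-ECKO 32.4 ± 0.531 and that of the double mutant 39.7 ± 5.72 TPM. Chd4-ECKO libraries held 1.39 times the control mean, but the log2 fold change of 0.47 ± 0.13 did not pass the adjustment over all genes (limma adjusted p = 0.151). The change in Brg1-ECKO, -0.25, did not pass either (limma adjusted p = 0.548), and its sign turned to 0.16 when TPM were divided by the endothelial reference genes, a scaling that moved the median of all genes from 0.08 to 0.47. The difference that passed was the one between the single mutants. Icam1 was 1.67 times higher in Chd4-ECKO than in Brg1-ECKO LSECs, a log2 fold change of 0.72 ± 0.13 (limma adjusted p = 0.0245), which is under the fold threshold for DEGs. The call was lost without Brg1-ECKO replicate 2 or 3 or Chd4-ECKO replicate 2 or 3 (limma adjusted p of 0.0661 to 0.140, values 0.70 to 0.72), and in a model of these groups alone (limma adjusted p = 0.146). Dividing by the endothelial reference genes left 0.44 (limma adjusted p = 0.278), where the median of all genes moved from -0.06 to -0.32. The double mutant lay between the single mutants, with a log2 fold change of -0.45 against Chd4-ECKO (limma adjusted p = 0.401) and of 0.27 against Brg1-ECKO (limma adjusted p = 0.815). Its libraries overlapped neither single mutant, and its log2 fold change against control was 0.02, where the median of all genes tested was 0.16.

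In the comparison of Chd4-ECKO with control LSECs, limma called 0 of the 9 members tested, while 0.521% of all genes were DEGs. At an unadjusted p under 0.05 there was 1 member, Icam1, against 6.49% of all genes, and it was also the only one whose groups did not overlap (12.3% of all genes). In Brg1-ECKO against control LSECs, 0 members were called (0.0149% of all genes), 3 had an unadjusted p under 0.05 (Cdh5, Cldn5 and Esam, against 9.68% of all genes), and Icam1 and Cldn5 did not overlap (14.6% of all genes). In Chd4/Brg1-ECDKO against control LSECs 0 were called (0.565% of all genes), 0 had an unadjusted p under 0.05 (12.1% of all genes) and 0 were without overlap (23.1%). The double mutant against Chd4-ECKO also gave 0 calls (0.0372% of all genes), with Icam1 alone at an unadjusted p under 0.05 (10.4% of all genes) and Icam1 and Cldn5 without overlap (15.9%). Against Brg1-ECKO it gave 0 calls (0.0967% of all genes), with Icam1 and Cldn5 at an unadjusted p under 0.05 (6.10% of all genes) and without overlap (9.00%). Between Chd4-ECKO and Brg1-ECKO LSECs 1 member, Cldn5, was a DEG (0.305% of all genes), and 2 passed the adjusted p alone (0.431%). Icam1, Vcam1, Cdh5 and Cldn5 were the 4 members with an unadjusted p under 0.05 (10.9% of all genes) and without overlap (13.0%). The comparisons with control share the control libraries, and those between mutants share the mutant libraries, so they are not independent of each other.

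**Figure D2:**
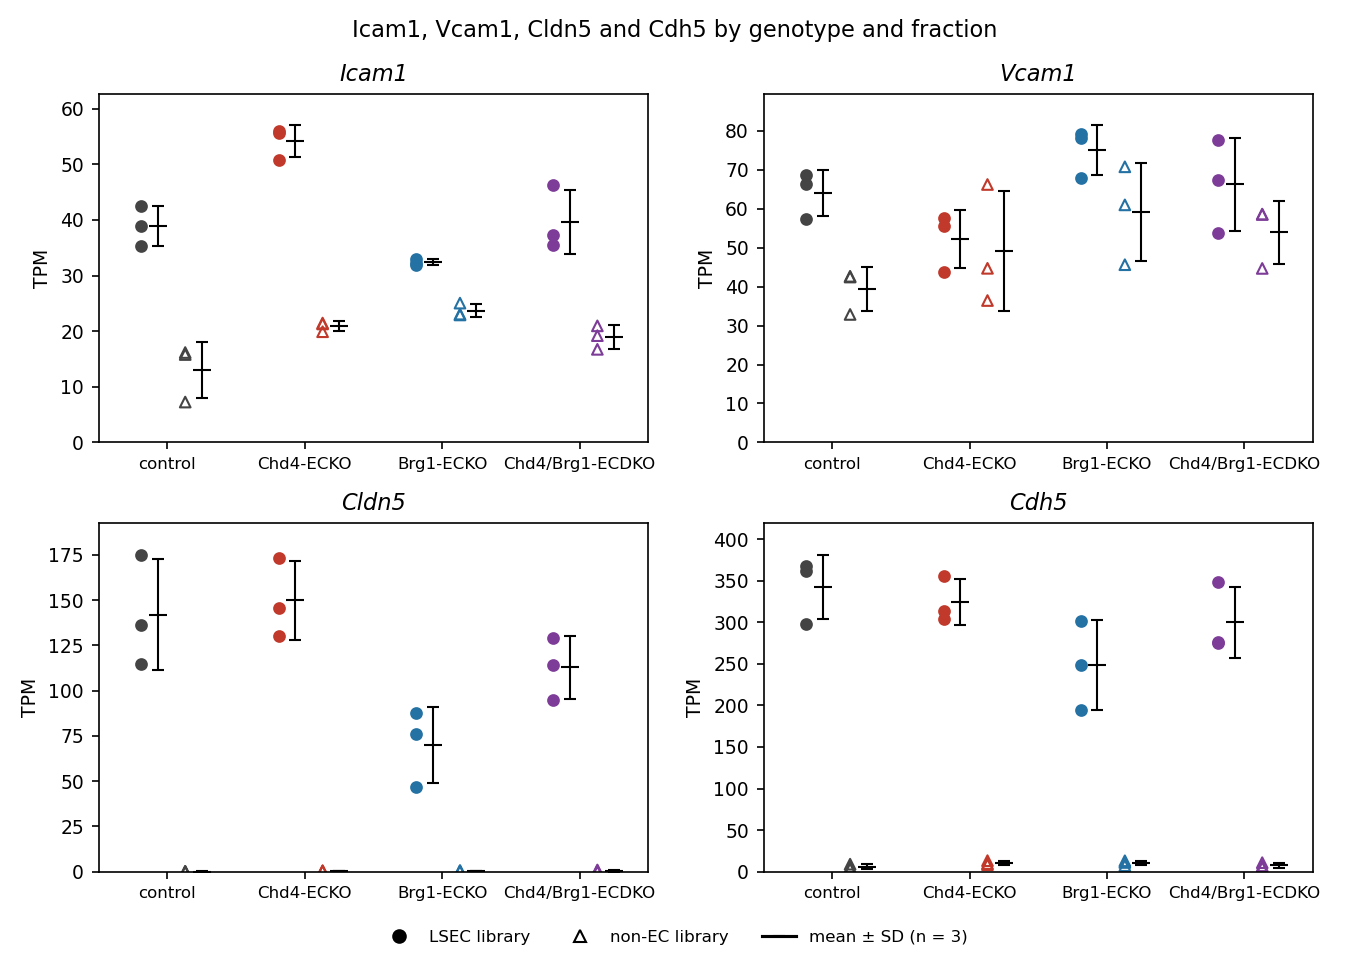
TPM of Icam1, Vcam1, Cldn5 and Cdh5 in each LSEC library (filled circles) and non-EC library (open triangles) by genotype, with the mean and SD of 3 libraries as bars. Among the LSEC libraries those of Chd4-ECKO hold the highest Icam1 and those of Brg1-ECKO the lowest Cldn5, while Vcam1 overlaps between most groups.

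Vcam1, the receptor for the integrin VLA-4, did not follow Icam1. It was at 66.2, 57.4 and 68.7 TPM in control LSECs and at 43.7, 57.5 and 55.5 TPM in Chd4-ECKO LSECs, groups that overlap. Brg1-ECKO LSECs had 78.2, 79.2 and 67.8 TPM, and the double mutant had 53.7, 67.3 and 77.6 TPM. Its mean was therefore lowest where that of Icam1 was highest, and highest where that of Icam1 was lowest. Set against control, Vcam1 had a log2 fold change of -0.30 in Chd4-ECKO (limma adjusted p = 0.895), 0.23 in Brg1-ECKO (limma adjusted p = 0.667) and 0.03 in the double mutant. Chd4-ECKO and Brg1-ECKO LSECs did not overlap in Vcam1, with a log2 fold change of -0.52 (limma adjusted p = 0.243). None of these differences passed the test. Over the endothelial reference genes Vcam1 was at 0.65 in Brg1-ECKO against control (limma adjusted p = 0.107), where the median of all genes moved from 0.08 to 0.47. It was at -0.81 in Chd4-ECKO against Brg1-ECKO (limma adjusted p = 0.278), where that median moved from -0.06 to -0.32. Control LSECs held 1.63 times the mean TPM of control non-EC cells, but in each mutant genotype the fractions overlapped, and the ratio was 1.06 in Chd4-ECKO, 1.27 in Brg1-ECKO, and 1.23 for the double mutant. Tested directly, the genotype effects on Vcam1 did not differ between fractions past the threshold. The differences were -0.58, -0.34 and -0.41 in the same order (limma adjusted p of 0.263, 0.543 and 0.744).

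The selectins gave little signal. Sele, the cytokine-induced selectin of endothelium, was at 0.533 to 0.625 TPM in the 3 control LSEC libraries and 0.165 to 1.2 in Chd4-ECKO. Brg1-ECKO libraries had 0.383 to 1.32 TPM of it and Chd4/Brg1-ECDKO libraries 0.364 to 0.597. In non-EC cells it was listed at 0 in 9 of 12 libraries and reached 0.0907 TPM at most. Control LSECs were higher than control non-EC cells by a log2 fold change of 0.60 ± 0.19 (limma adjusted p = 0.00877). Sele entered that model only through LSEC libraries, so the filter fixed the direction, and the size depended on the scale. The log2 fold change was 0.17 with quantile normalization (limma adjusted p = 0.374). It was 2.25 with a pseudocount of 0.1 TPM (limma adjusted p = 0.000572), where Sele also became a DEG. No genotype difference in Sele passed the test, and log2(TPM + 1) compresses differences at such low values. Selp, which endothelium and platelets store in granules, was 0.0451 to 0.543 TPM in LSECs and 0.257 to 1.59 TPM in non-EC cells. It did not reach 1 TPM in 3 libraries of any model and was not tested. Selp was the only member with a higher median outside the LSEC fraction, and the 14 megakaryocyte and platelet markers summed to 965 to 2431 TPM there against 281 to 788 TPM in LSECs. Whether these cells account for Selp was not tested.

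Cldn5 was the only member that was a DEG between genotypes within LSECs. It was at 136, 175 and 115 TPM in control LSECs and at 130.3, 146 and 173 TPM in Chd4-ECKO LSECs. It was at 46.8, 76.0 and 87.6 TPM in Brg1-ECKO LSECs, and all 3 of these libraries were below every library of the other 3 genotypes. In Chd4/Brg1-ECDKO LSECs it was at 94.8, 129 and 114 TPM, a range that overlaps the control. Brg1-ECKO libraries thus held 0.494 times the control mean, but the log2 fold change of -1.03 did not pass the adjustment over all genes (limma adjusted p = 0.173). It was -0.77 without Brg1-ECKO replicate 1 (limma adjusted p = 0.262) and -0.61 over the endothelial reference genes (limma adjusted p = 0.107). That scaling moved the median of all genes from 0.08 to 0.47. Chd4-ECKO LSECs held 2.14 times the Brg1-ECKO mean, a log2 fold change of 1.12 ± 0.22, and this was a DEG (limma adjusted p = 0.0432). Without LSEC Brg1-ECKO replicate 1 the log2 fold change was 0.86 (limma adjusted p = 0.0634). With TPM divided by the endothelial reference genes it was 0.84 (limma adjusted p = 0.0742), where the median of all genes moved from -0.06 to -0.32. The call was also lost without Brg1-ECKO replicate 2 or any Chd4-ECKO replicate (limma adjusted p of 0.0637 to 0.265, values 1.01 to 1.22) and in a model of these groups alone (limma adjusted p = 0.180). In the same comparison 22 of 24 endothelial markers other than the members had values above 0 (median 0.38), and 2 passed limma's adjusted p as higher. All 12 hepatoblast markers had values below 0 (median -1.19), 10 of them without overlap, and limma passed 0, with 11 at an unadjusted p under 0.05. All 8 pan-leukocyte markers had values above 0 (median 0.52), and 1 passed as higher. Their part in the Cldn5 and Icam1 values was not tested. The double mutant was 0.71 above Brg1-ECKO on the log2 scale (limma adjusted p = 0.399).

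The other junction genes and Icam2 were lower in Brg1-ECKO LSECs by their values, with no call. Cdh5 was at 194, 249 and 302 TPM in Brg1-ECKO LSECs against 362, 368 and 297 TPM in control, a log2 fold change of -0.48 (limma adjusted p = 0.426). Esam, an immunoglobulin-type protein of tight junctions, was at 33.2, 48.4 and 58.4 TPM against 66.9, 73.5 and 52.3 TPM, also -0.48 (limma adjusted p = 0.458). Icam2 was at 85.8, 154 and 163 TPM against 153, 215 and 159.7 TPM, a log2 fold change of -0.42. Each of these groups overlapped its control. Pecam1 (-0.19) and Mcam (-0.23) were nearer to 0. Without Brg1-ECKO replicate 1 the values were -0.31 for Cdh5, -0.25 for Esam, -0.13 for Icam2, 0.02 for Pecam1 and 0.01 for Mcam. Over the endothelial reference genes they were -0.05, -0.06, 0.00, 0.24 and 0.19 in the same order, so that the sign was not kept for Pecam1 and Mcam. That scaling moved the median of all genes from 0.08 to 0.47. In this comparison all 12 endothelial reference genes had values below 0 (median -0.40) and all 12 hepatoblast markers above 0 (median 1.14), with 0 of either list passing limma's adjusted p and 6 and 12 at an unadjusted p under 0.05. Their part in the values of the members was not tested. In Chd4-ECKO LSECs these 5 genes had log2 fold changes between -0.21 and 0.09, and in Chd4/Brg1-ECDKO LSECs between -0.25 and 0.17. In all 5, and in Cldn5, the lowest of the 12 LSEC libraries was Brg1-ECKO replicate 1, the library with the fewest endothelial and the most hepatoblast transcripts.

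The 6 genes Icam2, Pecam1, Cdh5, Mcam, Cldn5 and Esam varied together among libraries of one genotype. After the genotype means were subtracted, Pearson's r over the 12 LSEC libraries was 0.74 to 0.98 in their 15 pairs (Spearman's rho 0.6 to 0.99), highest for Cdh5 with Mcam. Without Brg1-ECKO replicate 1 the range was 0.39 to 0.99 over 11 libraries. Vcam1 had r of -0.14 to 0.05 with the same genes, and -0.06 to 0.27 without that library. Icam1 had r of 0.26 to 0.53 with them, but 0.48 to 0.8 without that library, a range within that of the 6 genes. Icam1 and Vcam1 had r of 0.48 with each other in both cases. These are descriptions, since the libraries share the CD146 selection and TPM sum to a fixed total. The plot of members against other endothelial genes shows these libraries. Cldn5 and Pecam1 were low in the library where the reference genes were low, while in that library Vcam1, at 78.2 TPM, and Icam1, at 33.0 TPM, were near the other Brg1-ECKO libraries.

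**Figure D3:**
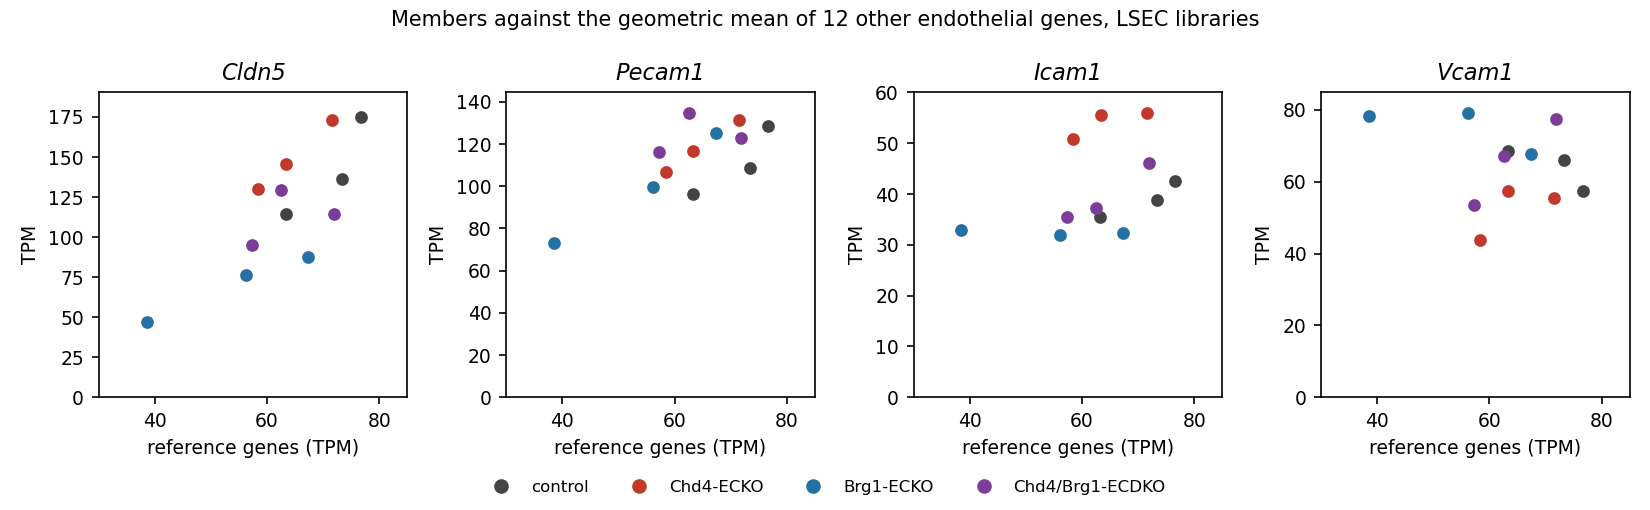
TPM of Cldn5, Pecam1, Icam1 and Vcam1 in each of the 12 LSEC libraries against the geometric mean TPM of 12 other endothelial genes, colored by genotype. The leftmost point, Brg1-ECKO replicate 1, has the lowest Cldn5 (46.8 TPM) and Pecam1 (73.1 TPM) but a high Vcam1 (78.2 TPM).

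In non-EC cells the Icam1 values of each mutant were above those of control, and of these differences only that of Brg1-ECKO passed the adjusted p. It was at 16.2, 7.26 and 15.8 TPM in control non-EC cells. Chd4-ECKO non-EC cells had 21.5, 21.3 and 19.9 TPM. Brg1-ECKO had 22.9, 25.1 and 23.1 TPM, and Chd4/Brg1-ECDKO had 21.0, 16.7 and 19.2 TPM. No mutant library overlapped the control libraries. Brg1-ECKO differed from control by a log2 fold change of 0.88 ± 0.23 (limma adjusted p = 0.0301), Chd4-ECKO by 0.71 (limma adjusted p = 0.0666) and Chd4/Brg1-ECDKO by 0.57 (limma adjusted p = 0.327). The mutants were not tested against each other in this fraction. Under 1 of 14 alternatives Chd4-ECKO passed as well (limma adjusted p = 0.0232). Control replicate 2 was the lowest of the 12, and without it the Brg1-ECKO value was 0.54 (limma adjusted p = 0.0254). Chd4-ECKO was then at 0.37 and Chd4/Brg1-ECDKO at 0.23 (limma adjusted p of 0.0844 and 0.677). Leaving out any single Brg1-ECKO replicate ended the call (limma adjusted p of 0.0765 to 0.0851), as did a model of these groups alone (limma adjusted p = 0.0574). Of the 6 members tested in non-EC cells, 0 were DEGs in any mutant, against 0.884% of all 12223 genes for Chd4-ECKO, 1.37% for Brg1-ECKO and 0.115% for Chd4/Brg1-ECDKO. Icam1 in Brg1-ECKO was the only member to pass the adjusted p alone, against 11.7% of all genes in that comparison, 9.48% in Chd4-ECKO and 0.581% in Chd4/Brg1-ECDKO. At an unadjusted p under 0.05 there were 2 members in Chd4-ECKO (33.9% of all genes), 3 in Brg1-ECKO (28.0%) and 1 in Chd4/Brg1-ECDKO (11.7%). The groups without overlap were Icam1 in Chd4-ECKO (27.4% of all genes), and Icam1 and Vcam1 in Brg1-ECKO (39.9%) and Chd4/Brg1-ECDKO (24%).

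Vcam1 was at 42.4, 32.8 and 42.6 TPM in control non-EC cells and at 70.7, 45.6 and 60.9 TPM in Brg1-ECKO, a log2 fold change of 0.56 (limma adjusted p = 0.123). Cdh5, of which non-EC cells kept a small amount, was at 9.10, 3.33 and 5.64 TPM in control and at 13.4, 8.55 and 9.91 TPM in Chd4-ECKO, a log2 fold change of 0.79 (limma adjusted p = 0.124). In Brg1-ECKO it was at 11.2, 7.41 and 13.2 TPM, a log2 fold change of 0.77 (limma adjusted p = 0.158), and the log2 fold change of the double mutant was 0.33 (limma adjusted p = 0.849). Pecam1 and Icam2 were within 0.20 of control on the log2 scale in every mutant, with no call. Markers of other cells differed between genotypes in this fraction, in both directions. The 12 hepatoblast markers summed to 18665 to 20717 TPM in control non-EC cells, while Chd4-ECKO had 28875 to 38768 TPM of them, Brg1-ECKO 27367 to 40849 and Chd4/Brg1-ECDKO 23913 to 32203. All 12 passed the adjusted p as higher in Brg1-ECKO, 10 in Chd4-ECKO and 0 in Chd4/Brg1-ECDKO. In Brg1-ECKO all 12 erythroid markers had values below 0 (median -0.80), and 3 passed as lower. All 11 mesenchymal and mesothelial markers tested had values above 0 there (median 0.47), and limma passed 0, with 2 at an unadjusted p under 0.05. The part of these cells in the Icam1 values was not tested.

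Whether a genotype effect differed between the fractions was tested directly, in a model of all 24 libraries. The Brg1-ECKO effect on Icam1, -0.25 among LSECs and 0.88 among non-EC cells, differed between them by -1.14 ± 0.26 (limma adjusted p = 0.0396). For Cldn5 the difference was -1.46 ± 0.33 (limma adjusted p = 0.0322), of which -1.03 is the LSEC effect and the rest comes from non-EC values that are all under 1 TPM. Cldn5 entered this model only through LSECs, and with a pseudocount of 0.1 TPM its difference was -2.65 (limma adjusted p = 0.103), so that its size is set by the pseudocount. These were 2 of the 9 members tested, where 0.639% of all genes were called, and 4 members had an unadjusted p under 0.05 (17.9% of all genes). Of 24 endothelial markers other than the members, 21 had values below 0 and 3 above in this contrast (median -0.68, beside 0.05 over all genes). Of these 24, 14 had an unadjusted p under 0.05 and 1 was called. Among 17 other endothelial adhesion and transmigration molecules, 15 were below 0 and 3 were called. Their part in the Icam1 and Cldn5 differences was not tested. LSEC and non-EC libraries of the same genotype and number deviated together, and with these pairs as a replicate block the adjusted p rose to 0.0783 for Icam1 and 0.0616 for Cldn5 (limma), above 0.05. Without LSEC Brg1-ECKO replicate 1 they were 0.0682 and 0.0752 (limma adjusted p), and leaving out any other control or Brg1-ECKO library ended 1 or both calls, except LSEC Brg1-ECKO replicate 3 and non-EC control replicate 1 (limma adjusted p of up to 0.106). For Chd4-ECKO 0 of 9 members were called (0.690% of all genes; Cdh5 alone had an unadjusted p under 0.05, against 19.1%), and the Icam1 difference was -0.24 (limma adjusted p = 0.648). For Chd4/Brg1-ECDKO 0 of 9 were called (0.0581% of all genes; 2 had an unadjusted p under 0.05, against 7.57%), and the Icam1 difference was -0.55 (limma adjusted p = 0.658).

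**Figure D4:**
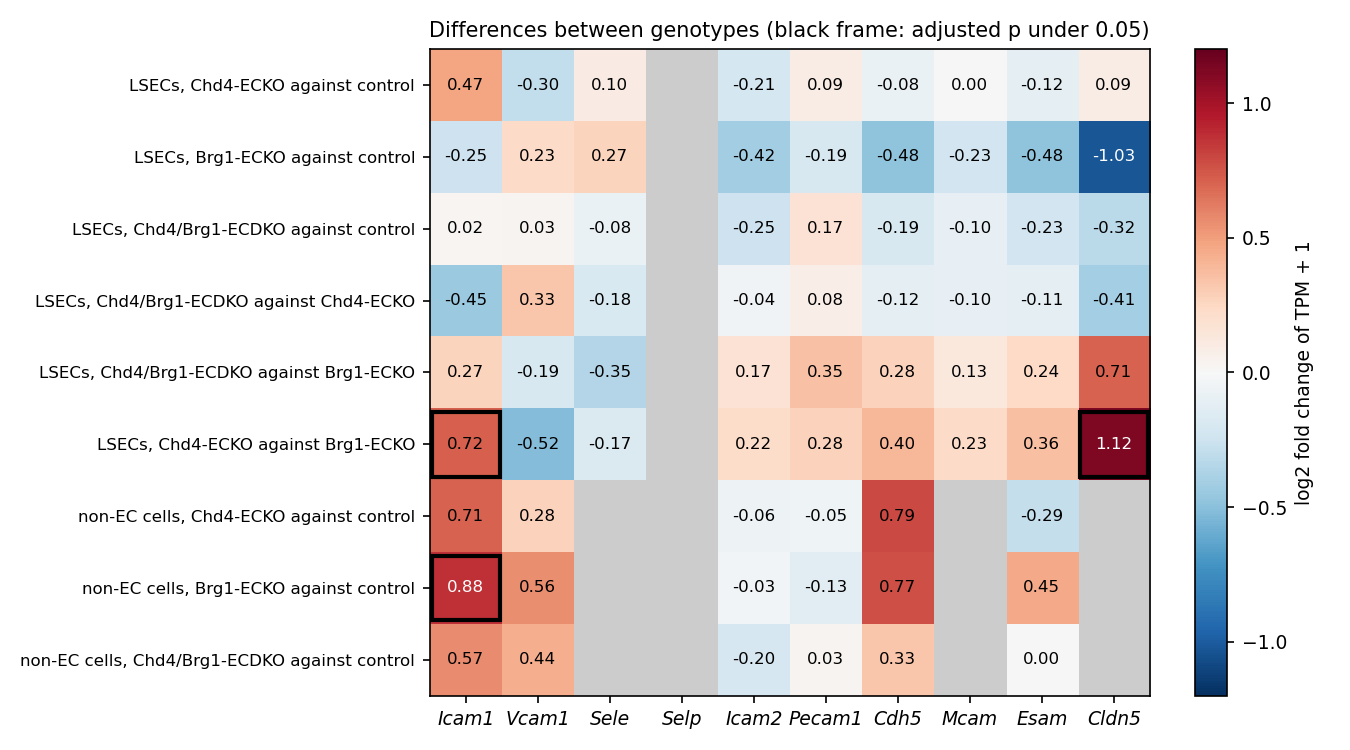
Log2 fold change of TPM + 1 for each member (columns) in 9 comparisons between genotypes (rows), with black frames where limma's adjusted p was under 0.05 and gray where a member was not tested. The frames are on Icam1 and Cldn5 in Chd4-ECKO against Brg1-ECKO LSECs and on Icam1 in Brg1-ECKO against control non-EC cells.

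A list of 31 genes of TNF and NF-kappaB signaling was followed, which holds receptors and signal proteins and also cytokines and chemokines. In Chd4-ECKO against control LSECs, 1 of the 29 tested passed the adjusted p as higher and 0 as lower (0.707% of all genes passed either way), and the median log2 fold change was 0.17, beside 0.01 over all genes. That gene was Cebpb, a transcription factor of acute inflammation, at 36.0 ± 3.66 TPM (SD, n = 3) against 18 ± 1.0 TPM in control, a log2 fold change of 0.96 ± 0.13 (limma adjusted p = 0.00337). In Chd4/Brg1-ECDKO LSECs 2 of 29 passed as higher (0.870% of all genes passed either way), with a median of 0.21 beside 0.16 over all genes. They were Cebpb, with a log2 fold change of 0.81 (limma adjusted p = 0.0105), and Ccl2, a chemokine that draws monocytes, at 10.3 ± 1.51 TPM against 2.69 ± 1.03 TPM in control, a log2 fold change of 1.65 (limma adjusted p = 0.0144). In Brg1-ECKO LSECs limma passed 0 of 29 (0.0223% of all genes). At an unadjusted p under 0.05 there were 5 of 29 for Chd4-ECKO, 8 for Brg1-ECKO and 10 for the double mutant, beside 6.49%, 9.68% and 12.1% of all genes. In both of these mutants 3 of 8 pan-leukocyte markers, named with the receptors, also passed as higher, and their part in the Cebpb and Ccl2 values was not tested.

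The leukocyte side of the same contacts was followed in 15 receptors of the members. In Chd4-ECKO LSECs 1 of 12 tested passed the adjusted p as higher, and 10 of 12 had a value above 0 (median 0.64, beside 0.01 over all genes), where 0.707% of all genes passed. It was Itgal, the alpha chain of LFA-1, the integrin that binds ICAM1 and ICAM2. Itgal was at 36.3 ± 8.24 TPM in Chd4-ECKO and 12.0 ± 1.73 TPM in control LSECs, a log2 fold change of 1.51 ± 0.20 (limma adjusted p = 0.00273). In Chd4/Brg1-ECDKO LSECs Itgal was at 30.4 ± 7.89 TPM, a log2 fold change of 1.25 (limma adjusted p = 0.00973), and Selplg, the ligand of P-selectin, was higher by 0.89 (limma adjusted p = 0.0388). In Brg1-ECKO LSECs limma passed 0 of 12. At an unadjusted p under 0.05 there were 8 of 12 for Chd4-ECKO, 4 for Brg1-ECKO and 7 for the double mutant, beside the same shares of all genes (6.49%, 9.68% and 12.1%). Itgal is a leukocyte gene, and some pan-leukocyte and macrophage markers, but 0 neutrophil and granule markers, passed the adjusted p as higher in Chd4-ECKO LSECs. The 8 pan-leukocyte markers summed to 183 to 234 TPM in control LSECs, to 249 to 416 in Chd4-ECKO and 305 to 325 in Chd4/Brg1-ECDKO, and to 214 to 252 in Brg1-ECKO, and 3 of 8 passed the adjusted p as higher in Chd4-ECKO (Laptm5, Was and Rac2). The same 3 genes passed as higher in Chd4/Brg1-ECDKO LSECs (limma adjusted p of 0.00945, 0.00426 and 0.0126). The 18 macrophage markers summed to 782 to 1162 TPM in control LSECs and 1080 to 1898 in Chd4-ECKO, where 3 of 17 tested passed as higher (Cx3cr1, Fcer1g and Spi1). They summed to 882 to 1362 TPM in Brg1-ECKO and to 965 to 1556 in the double mutant, and limma passed 0 of 17 in each of these. Cx3cr1 was at 48.6 ± 15.8 TPM in Chd4-ECKO against 15.0 ± 2.79 TPM in control, and 17 of the 18 macrophage markers were at 1 TPM or more in all 12 LSEC libraries, while Vsig4 was listed at 0 in some. Of the 7 neutrophil and granule markers tested, 5 had values below 0 in Chd4-ECKO against control (median -0.79), and limma passed 0 of the 7. The 2 above 0 were Mpo (log2 fold change 1.98, limma adjusted p = 0.398) and Prtn3 (0.80, limma adjusted p = 0.803). Both were higher without overlap, and Mpo was the 1 marker at an unadjusted p under 0.05. The part of these marker lists in the Icam1 and Itgal values was not tested.

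Other genes of adhesion and junctions were read from fixed lists in the same fits. Of 17 other endothelial adhesion and transmigration molecules tested (among them F11r, Jam2 and Emcn), 0 passed limma's adjusted p in any of the 3 mutants against control LSECs, while 2 for Chd4-ECKO, 6 for Brg1-ECKO and 3 for Chd4/Brg1-ECDKO had an unadjusted p under 0.05 (6.49%, 9.68% and 12.1% of all genes). The nearest in Chd4-ECKO were Cd47 at 0.51 (limma adjusted p = 0.342) and Clec14a at -0.64 (limma adjusted p = 0.438). Of 15 tested genes of selectin ligand glycosylation, 0 passed limma's adjusted p in any mutant (2, 1 and 3 at an unadjusted p under 0.05 in the same order), with Cd34, a mucin that carries selectin ligands, at -0.57 in Chd4-ECKO (limma adjusted p = 0.417). Of 36 tested other junction genes, 2 passed as lower in Chd4-ECKO LSECs (0.707% of all genes passed either way), and both encode connexins of arterial gap junctions. Gja4 was at 7.96 ± 1.17 TPM against 21.2 ± 3.38 TPM in control, a log2 fold change of -1.31 (limma adjusted p = 0.00560). Gja5 was at 5.59 ± 1.91 TPM against 18.1 ± 7.44 TPM, a log2 fold change of -1.5 (limma adjusted p = 0.0368), and in Chd4/Brg1-ECDKO, where 1 of 36 passed (0.870% of all genes), its log2 fold change was -1.87 (limma adjusted p = 0.00917). Of 17 ERM and actin linkers, which tie ICAM1 and VE-cadherin to the cytoskeleton, 1 passed, Nherf2 in Chd4/Brg1-ECDKO LSECs (log2 fold change -0.84; limma adjusted p = 0.0144). At an unadjusted p under 0.05 there were 3, 9 and 6 of the 36 junction genes and 2, 1 and 1 of the 17 linkers in Chd4-ECKO, Brg1-ECKO and Chd4/Brg1-ECDKO, beside the shares of all genes given above.

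The genes whose log2(TPM + 1) followed Icam1 most closely over the 12 LSEC libraries were Dcaf12l1 (Pearson's r = 0.94), Apobec2 (0.94), Slc30a2 (0.93), Cyp4b1 (0.92) and Sncg (0.92). Their mean TPM had the order of Icam1 at its ends, highest in Chd4-ECKO and lowest in Brg1-ECKO. Sncg was at 32.0 TPM in Chd4-ECKO, 14.1 in control, 11.5 in Chd4/Brg1-ECDKO and 7.73 in Brg1-ECKO LSECs, and Dcaf12l1 at 11.9, 7.92, 7.79 and 5.53 TPM in the same order. The genes nearest to Vcam1 were Exosc9 (0.95), Gtf3c6 (0.92), Smim10l1 (0.91), Lig4 (0.89) and Fcsk (0.89), all with their lowest mean in Chd4-ECKO and their highest in Brg1-ECKO. For Exosc9 these means were 78.0 and 96.4 TPM, a narrower span than that of Vcam1. The genes were chosen as the 5 highest r of 13444 genes over 12 points, so the values describe likeness and carry no test. The lists nearest to Icam1 and to Vcam1 shared no gene, which adds nothing, since the means of Icam1 and Vcam1 themselves had opposite orders at their ends.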

How the data were processed

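RNA was sequenced by the authors from CD146-selected LSECs and the remaining non-EC cells of E12.5 livers, which had been digested with inhibitors of transcription and translation. After poly-A selection, reads were trimmed of repeated guanines and aligned to GRCm39/mm39 in CLC Genomics Workbench, whose version is not given in the sources used here, and the authors deposited TPM per gene. TPM hold no depth, so no counting error is given. The 8 deposited columns of group means equalled the means of the replicates to within 6.67e-06 TPM and were not used. The members and all gene lists were chosen with earlier results of these data known.

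A gene was kept in a model if 3 or more of its libraries reached 1 TPM. The test was that of limma (version 3.58.1, under R 4.3.3) with a variance trend, applied to log2(TPM + 1) in models of 12 LSEC libraries (13444 genes), 12 non-EC libraries (12223 genes) and all 24 (13775 genes). P-values are two-sided and adjusted by the Benjamini-Hochberg method over all genes tested. Fold changes on the log2(TPM + 1) scale understate low genes. Of the members, 9 passed the filter in LSECs (not Selp), 6 in non-EC cells (Icam1, Icam2, Vcam1, Pecam1, Cdh5 and Esam) and 9 in the joint model. DEGs meet the study's thresholds, an absolute log2 fold change beyond 1 at an adjusted p below 0.05. Labels do not name the culture or litter of a replicate beyond its number, and all libraries carry the same batch label. Replicates correlated at 0.962 to 0.993.

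Within a genotype, LSEC and non-EC libraries with one number deviated from their group means together (r of 0.124 to 0.411 in 12 of 12 pairs, mean 0.270), and were taken as pairs in the replicate block of the joint model. Named genes were all members, up to 4 genes with the smallest p per list and comparison of LSECs with control that passed the adjusted p (otherwise the 2 smallest p in Chd4-ECKO), and the 5 genes most like Icam1 and Vcam1. Alternatives were a pseudocount of 0.1, no filter, a filter on a mean of 5 TPM, quantile normalization, TPM without mitochondrial and globin genes, TPM over 12 endothelial reference genes, no variance trend, the block, models of the compared groups alone, no fold threshold and each library left out. The steps were tested on simulated data. Promoters were searched in python 3.11.15 and figures drawn with matplotlib 3.10.9.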

Additional observations from a re-analysis of the deposited data

Results flagged for a closer look

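The Brg1-ECKO effect on Icam1 differed between LSECs and non-EC cells by -1.14 on the log2(TPM + 1) scale (limma adjusted p = 0.0396), and that on Cldn5 by -1.46 (limma adjusted p = 0.0322). What marks both is a test of the difference between the fractions that passed the threshold. Over the 20 alternatives run for each of them the differences were -1.32 to -0.79 for Icam1 and -2.65 to -1.2 for Cldn5. For each gene the adjusted p no longer passed in 11 of the 20 (limma adjusted p of up to 0.106 and 0.103). In the same contrast 21 of 24 endothelial markers other than the members had values below 0 (median -0.68, beside 0.05 over all genes). Their part in the Icam1 and Cldn5 differences was not tested. Division by the endothelial reference genes was run within LSECs alone and not for these differences. There it turned the sign of the Icam1 value in Brg1-ECKO against control to 0.16, while the median of all genes moved from 0.08 to 0.47. For Icam1 all 3 Brg1-ECKO LSEC libraries lay below the control LSEC libraries, and all 3 Brg1-ECKO non-EC libraries lay above the control non-EC libraries. With LSEC and non-EC libraries paired in a replicate block the adjusted p were 0.0783 and 0.0616 (limma). For Cldn5 every non-EC library was under 1 TPM, so that Cldn5 entered the model only through LSEC libraries. With a pseudocount of 0.1 TPM its difference was -2.65 (limma adjusted p = 0.103), so the size is set by the pseudocount.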

How the results depend on the processing

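Of 45 values of single members, 41 kept their direction under every alternative, and of 712 alternative values 655 kept direction and side of the threshold, 42 lost a call, 5 gained one and 10 reversed. Against control, Icam1 in Chd4/Brg1-ECDKO LSECs (0.02) became -0.11 with quantile normalization, -0.06 without mitochondrial and globin genes, and -0.09 to 0.09 with a library left out (-0.09 without Chd4/Brg1-ECDKO replicate 3 and -0.04 without control replicate 3). Vcam1 there (0.03) became -0.08 and -0.05 under the same scalings and -0.09 to 0.17 with a library left out (-0.09 without Chd4/Brg1-ECDKO replicate 3 and -0.04 without control replicate 2). Icam1 in Brg1-ECKO LSECs became 0.16 over the endothelial reference genes, where the median of all genes moved from 0.08 to 0.47. The Chd4-ECKO difference of Icam1 between fractions was -0.42 to 0.10 with a library left out (0.10 without non-EC control replicate 2). The number of members called between Chd4-ECKO and Brg1-ECKO LSECs, 1, was 0 with no filter, no variance trend, the compared groups alone or the endothelial reference, 2 with no fold threshold, and 0 to 1 with a library left out. In Brg1-ECKO non-EC cells it was 1 in place of 0 with no fold threshold and 0 to 1 with a library left out (1 without control replicate 1 or 3). For the Brg1-ECKO difference between fractions, 2 became 1 with a pseudocount of 0.1 or no filter, 0 with the replicate block or the compared groups alone, and 0 to 3 with a library left out, where Cdh5 was the added gene. The cause of these shifts was not tested. Within a fraction, same-numbered libraries of different genotypes deviated together in part (r above 0.1 in 13 of 18 LSEC and 10 of 18 non-EC pairs). For libraries of different number this was so in 8 of 36 pairs in each fraction. Within a fraction the replicate block raised the genes called from 70 to 87 in Chd4-ECKO, from 2 to 5 in Brg1-ECKO and from 13 to 25 between Chd4/Brg1-ECDKO and Brg1-ECKO LSECs. It also made Cdh5 pass in Chd4-ECKO and Brg1-ECKO non-EC cells (limma adjusted p of 0.0281 and 0.0226) and Vcam1 in Brg1-ECKO (0.0470). Leaving out mitochondrial and globin genes moved the median of all genes between fractions from -0.09 to 0.16. TPM hold no depth, which limits what can be said of Sele and Selp.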
